A study of Arabidopsis thaliana with 12 samples.

Results

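The chloroplast keeps a small genome of its own, and these 43 genes of it encode subunits of the complexes that carry out photosynthesis. They were taken as every probe set annotated to a single plastid-encoded gene of photosystem I (psa), photosystem II (psb), the cytochrome b6f complex (pet), the NADH dehydrogenase-like (NDH) complex (ndh), the ATP synthase (atp) or the large subunit of Rubisco (rbcL). The gene table held 44 such genes, and 43 had a probe set of their own among the 22746 tested. The gene left out was ndhB, whose probe set lists both of its copies. Photosystem II had 15 genes, the NDH complex 10, the cytochrome b6f complex and the ATP synthase 6 each, photosystem I 5 and Rubisco 1. A further 26 plastid-encoded protein genes, mostly of ribosomes and RNA polymerase, had probe sets of their own.

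Photosystem II splits water and passes electrons to the cytochrome b6f complex, which hands them on to photosystem I, while the NDH complex returns electrons from the stroma to this chain. The ATP synthase uses the proton gradient that results, and Rubisco fixes carbon dioxide. Most of these plastid genes lie in operons that are transcribed together and then cut into smaller mRNAs, each complex also needs subunits encoded in the nucleus, and stable plastid mRNAs, unlike nuclear ones, mostly carry no poly(A) tail.

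The cells were T87, a suspension culture of Arabidopsis thaliana, ecotype Columbia, sampled at an age of 5 days (120 h of culture). They had grown in 3% sucrose and 0.5 µM naphthaleneacetic acid, an auxin, at 20 °C under 16 h of light at 24 µE and 8 h of dark. Control cells were given ethanol, the solvent. The ABA group was given 50 µM abscisic acid (ABA), the stress hormone, the DMTU group 5 mM dimethylthiourea (DMTU), a scavenger of hydrogen peroxide, with ethanol, and the ABA+DMTU group both compounds, each for 20 h and with 3 arrays per group. Nothing in the labels says whether the replicates were separate cultures, and the p-values reflect only how far these arrays differ, a spread that may be technical. T87 has no defining marker of its own. Of 29 organ markers listed, 3 were measured, EXPA7 and EXPA18 of root hairs and FMA of stomatal guard cells. They lay between 3.58 and 4.46 on all arrays, close to the arrays' lower quartiles of 3.84 to 3.98.

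All levels below are the authors' log2 probe set values, so that a difference of 1 is a factor of 2. A probe set was called higher or lower in a comparison at an adjusted p under 0.05 in limma's moderated test over all probe sets, errors beside a difference are standard errors, and errors beside a level are standard deviations over 3 arrays. Levels of different genes are not compared with each other, since probes differ in brightness. A place among all probe sets or near a quartile is for this reason only a rough guide to signal. The label was made with a 3' kit, which starts from poly(A), and the share of each plastid mRNA that it captured was not measured. Of the 43 genes, 27 had a mean level in the top 25% of all probe sets and 1, ndhF, in the bottom 25%. In bulk RNA, fewer plastids or plastid genomes per cell and less RNA from each cannot be told apart.

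The arrays with DMTU differed from those without it in a way that does not come from the cells. Transcripts of the Bacillus genes dap, thr, phe and lys are controls that an experimenter adds to the RNA before labelling. The dap probe set lay at 3.48 to 3.96 on the 6 arrays without DMTU and at 8.13 to 8.87 on the 6 arrays with it. The ranges were 4.29 to 4.5 against 5.88 to 6.76 for thr, 4.41 to 4.63 against 5.33 to 6.25 for phe, and 3.3 to 3.66 against 4.22 to 4.7 for lys. Of the 24 probe sets for these 4 transcripts, 23 did not overlap between the kinds of array. A sign of RNA quality, the 3' minus 5' difference of a ubiquitin transcript, was 0.92 ± 0.07 on the control arrays and 0.67 ± 0.04 with ABA, but 1.36 ± 0.07 with DMTU and 1.1 ± 0.07 with both compounds. The other 5 pairs did not all follow it: in that order of groups, the values were 3.2 ± 0.46, 2.65 ± 0.09, 3.58 ± 0.12 and 3.31 ± 0.07 for 1 actin pair, 0.76 ± 0.14, 0.94 ± 0.08, 1.09 ± 0.05 and 1.29 ± 0.13 for another, and 0.45 ± 0.1, 0.59 ± 0.07, 0.41 ± 0.19 and 0.64 ± 0.45 for a GAPDH pair. The remaining ubiquitin pair was at 0.33 ± 0.07, 0.3 ± 0.1, 0.46 ± 0.05 and 0.56 ± 0.15. The remaining GAPDH pair was at -0.07 ± 0.19, -0.05 ± 0.03, 0.02 ± 0.05 and 0.25 ± 0.24. Group means were higher in ABA+DMTU than in ABA for every pair. They were higher in DMTU than in control for all but the GAPDH pair at 0.41. In every comparison of arrays with DMTU against arrays without it, the effect of DMTU and that of whatever else differed in handling these arrays cannot be told apart. The comparisons of ABA+DMTU with DMTU and of ABA with control each lie within 1 kind of array.

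**Figure D1:**
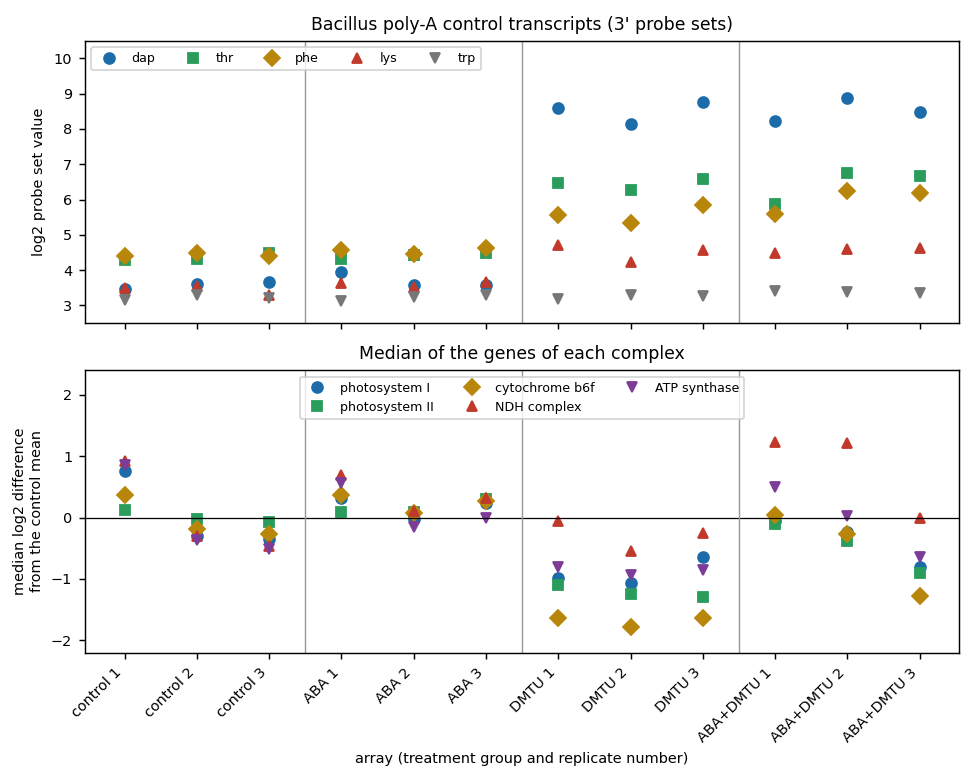
The upper panel plots the log2 value of 5 Bacillus poly-A control transcripts on each of the 12 arrays, and the lower panel the median log2 difference of the genes of each complex from their control means. The dap, thr, phe and lys points step up on the 6 arrays with DMTU, where the medians of photosystem II and the cytochrome b6f complex lie lowest on the DMTU arrays, and that of photosystem I is lower on the DMTU arrays and on ABA+DMTU replicate 3 than on the other arrays.

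Among the 43 genes, the DMTU group had the lowest of the 4 group means for 32 and the highest for none. The highest mean was in the ABA group for 21 genes, in ABA+DMTU for 17 and in control for 5. Single arrays also stood out. Control replicate 1 was the highest control array for 36 of the 43 genes and for all 17 genes of the NDH complex, the ATP synthase and Rubisco. ABA+DMTU replicate 1 was the highest array of its group for 34 genes, and replicate 3 the lowest for 40. The median SD of the 43 genes was 0.65 in the ABA+DMTU group, 0.31 in control, 0.21 in ABA and 0.18 in DMTU. The median SD of all probe sets lay between 0.14 and 0.16 in the 4 groups. Replicate 1 of control and of ABA stood apart over all probe sets too. For control, differences from replicates 2 and 3 had an SD of 0.565 and 0.55, against 0.167 between replicates 2 and 3. The same values for ABA were 0.505, 0.465 and 0.174.

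**Figure D2:**
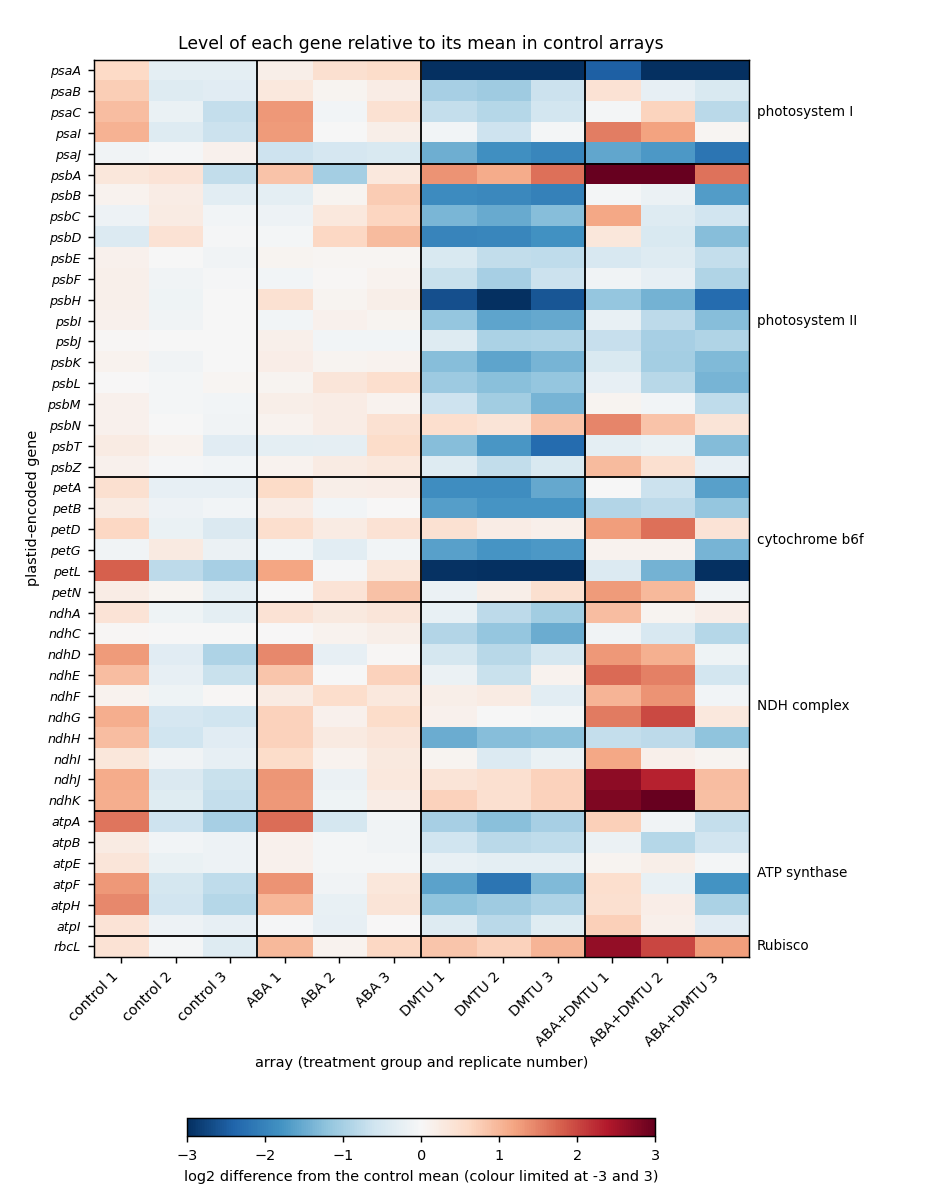
Rows are the 43 genes by complex and columns the 12 arrays, coloured by the log2 difference from the gene's control mean, with blue below and red above it. The DMTU columns are blue for most photosystem and cytochrome b6f genes, psbA and rbcL are red there, and ABA+DMTU replicate 3 is bluer than the other two arrays of its group.

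In DMTU against control, 21 of the 43 genes were lower and none was higher, where 17.6% of all probe sets were called, 8.26% lower and 9.39% higher. The median difference was -0.78, against 0.03 for all probe sets, and 34 of the 43 values lay below 0. The DMTU arrays lay wholly below the control arrays for 28 genes (65.1%, against 17.4% of all probe sets). DMTU and the handling of its arrays cannot be told apart here. The calls were spread unevenly over the complexes. Photosystem II had 12 lower of 15, the cytochrome b6f complex 4 of 6, photosystem I 2 of 5, the NDH complex 2 of 10 and the ATP synthase 1 of 6, and rbcL was not called. Genes of 1 operon are transcribed together and their probe sets are not independent of each other. The difference between complexes was not tested. The absence of higher calls depended on the fit. With array quality weights, 24 of the 43 genes were lower and 6 higher, where 3746 of all 22746 probe sets were lower and 4262 higher. With only the groups compared, 21 genes were lower and 3 higher.

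In photosystem I, the reaction centre pair is encoded by psaA and psaB, neighbours in 1 operon. The psaA probe set read 10.36, 9.47 and 9.48 in control, 9.94, 10.26 and 10.31 in ABA, 5.47, 5.53 and 5.88 in DMTU and 7.31, 6.47 and 5.71 in ABA+DMTU arrays. All 6 arrays with DMTU lay below all 6 without it. The psaA level fell by 4.15 ± 0.35 in DMTU against control, a 17.7-fold lower level and the largest change of any of the 43 genes in this comparison (limma adjusted p = 5.48e-05). It also fell by 3.67 ± 0.35 in ABA+DMTU against ABA (limma adjusted p = 8.23e-05). The psaB probe set read 12.24, 11.1 and 11.15 in control, 11.82, 11.57 and 11.72 in ABA, 10.51, 10.42 and 10.85 in DMTU and 11.93, 11.26 and 11.03 in ABA+DMTU arrays. The DMTU arrays were the lowest, but psaB did not pass the test in DMTU against control (-0.9 ± 0.3, limma adjusted p = 0.0605) or in ABA+DMTU against ABA (-0.3 ± 0.3, limma adjusted p = 0.567).

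The psaJ gene, for a small photosystem I subunit, was the only one of the 43 called in ABA against control. It read 9.88, 9.94 and 10.11 in control, 9.36, 9.48 and 9.51 in ABA, 8.52, 8.13 and 8.03 in DMTU and 8.41, 8.26 and 7.78 in ABA+DMTU arrays. Control lay above ABA and ABA above both groups with DMTU, which overlapped. The psaJ level fell by 1.75 ± 0.17 in DMTU against control (limma adjusted p = 0.000126) and by 1.3 ± 0.17 in ABA+DMTU against ABA (limma adjusted p = 0.000613). The other photosystem I genes, psaC for the subunit that holds the terminal iron-sulfur clusters and psaI for a small membrane subunit, were at -0.7 ± 0.46 and -0.25 ± 0.5 in DMTU against control and were not called.

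**Figure D3:**
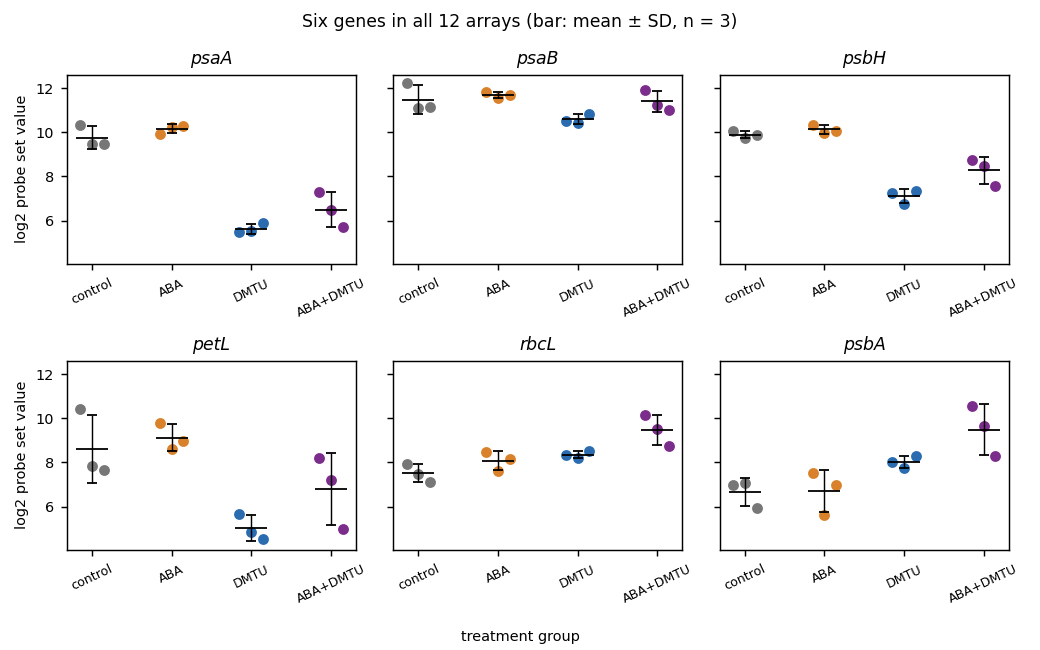
Points are the log2 values of psaA, psaB, psbH, petL, rbcL and psbA on each array by treatment group, and bars are the mean ± SD of 3 arrays. The DMTU arrays of psaA, psbH and petL lie far below control, those of psaB slightly below, and rbcL and psbA are highest in ABA+DMTU.

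In photosystem II, 12 genes fell in DMTU against control. They included psbB, psbC and psbD, for the inner antenna proteins and a reaction centre protein, psbE and psbF, for cytochrome b559, and the small subunits psbH, psbI, psbJ, psbK, psbL, psbM and psbT. The psbH probe set, for a subunit that is phosphorylated, read 10.05, 9.76 and 9.89 in control, 10.36, 9.99 and 10.08 in ABA, 7.26, 6.74 and 7.33 in DMTU and 8.74, 8.49 and 7.59 in ABA+DMTU arrays. The DMTU arrays were lowest, the ABA+DMTU arrays next, and the control and ABA arrays overlapped above them. It fell by 2.79 ± 0.26 in DMTU against control, a 6.92-fold lower level (limma adjusted p = 0.00011), and by 1.87 ± 0.26 in ABA+DMTU against ABA (limma adjusted p = 0.000919). The psbD probe set, for a reaction centre protein, read 8.7, 9.55 and 9.07 in control, 9.04, 9.72 and 10.05 in ABA, 7.13, 7.14 and 7.28 in DMTU and 9.44, 8.65 and 7.84 in ABA+DMTU arrays. All DMTU arrays lay below the other 9, and psbD fell by 1.92 ± 0.37 against control (limma adjusted p = 0.00519). The other 10 falls of photosystem II lay between -1.95 for psbB and -0.66 for psbE. The psbC call did not hold without control replicate 2 or 3 or any 1 DMTU array (limma adjusted p = 0.0537 to 0.0832), nor that of psbF without DMTU replicate 2 (0.067).

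The partner of psbD in the reaction centre, psbA, did not follow it. The psbA probe set read 6.98, 7.05 and 5.92 in control, 7.5, 5.63 and 6.97 in ABA, 8.00, 7.76 and 8.31 in DMTU and 10.55, 9.65 and 8.28 in ABA+DMTU arrays. All 6 arrays with DMTU lay above all 6 without it. The difference was 1.37 ± 0.57 in DMTU against control, which missed the threshold (limma adjusted p = 0.128), and psbA rose by 2.79 ± 0.57 in ABA+DMTU against ABA (limma adjusted p = 0.0081). The remaining genes of photosystem II, psbN, whose product acts in assembly, and psbZ, for a small subunit, were at 0.58 ± 0.23 and -0.53 ± 0.23 in DMTU against control and were not called.

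In the cytochrome b6f complex, petA (cytochrome f), petB (cytochrome b6) and the small subunits petG and petL fell in DMTU against control. The petA probe set read 10.85, 10.12 and 10.13 in control, 10.93, 10.55 and 10.57 in ABA, 8.5, 8.51 and 8.82 in DMTU and 10.35, 9.73 and 8.74 in ABA+DMTU arrays. The petB probe set read 12.67, 12.26 and 12.33 in control, 12.64, 12.33 and 12.44 in ABA, 10.77, 10.64 and 10.66 in DMTU and 11.55, 11.63 and 11.25 in ABA+DMTU arrays. For petB, the DMTU group was lowest, ABA+DMTU next and the other groups, which overlapped, highest. In DMTU against control, petA fell by 1.76 ± 0.34 and petB by 1.73 ± 0.14 (limma adjusted p = 0.00528 and 4.5e-05).

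The petG probe set read 6.02, 6.4 and 5.95 in control, 6.04, 5.81 and 6.03 in ABA, 4.5, 4.35 and 4.39 in DMTU and 6.22, 6.22 and 4.73 in ABA+DMTU arrays. The DMTU arrays lay below all others, and ABA+DMTU replicate 3 lay nearer to them than to its own group. The petL probe set read 10.41, 7.83 and 7.64 in control, 9.81, 8.59 and 8.97 in ABA, 5.66, 4.85 and 4.51 in DMTU and 8.21, 7.21 and 5.00 in ABA+DMTU arrays. Control replicate 1 stood far above the other control arrays for petL, and the DMTU arrays lay below every control array. The fall was 3.62 ± 0.84 for petL (limma adjusted p = 0.0135) and 1.71 ± 0.32 for petG (limma adjusted p = 0.00469), and without DMTU replicate 3 the adjusted p of petL was 0.0512. Subunit IV, encoded by petD, and the small subunit petN were at 0.27 ± 0.31 and 0.16 ± 0.34, and the petD control arrays, at 3.77 to 4.82, lay near the lower quartile, where a fall is hard to measure.

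**Figure D4:**
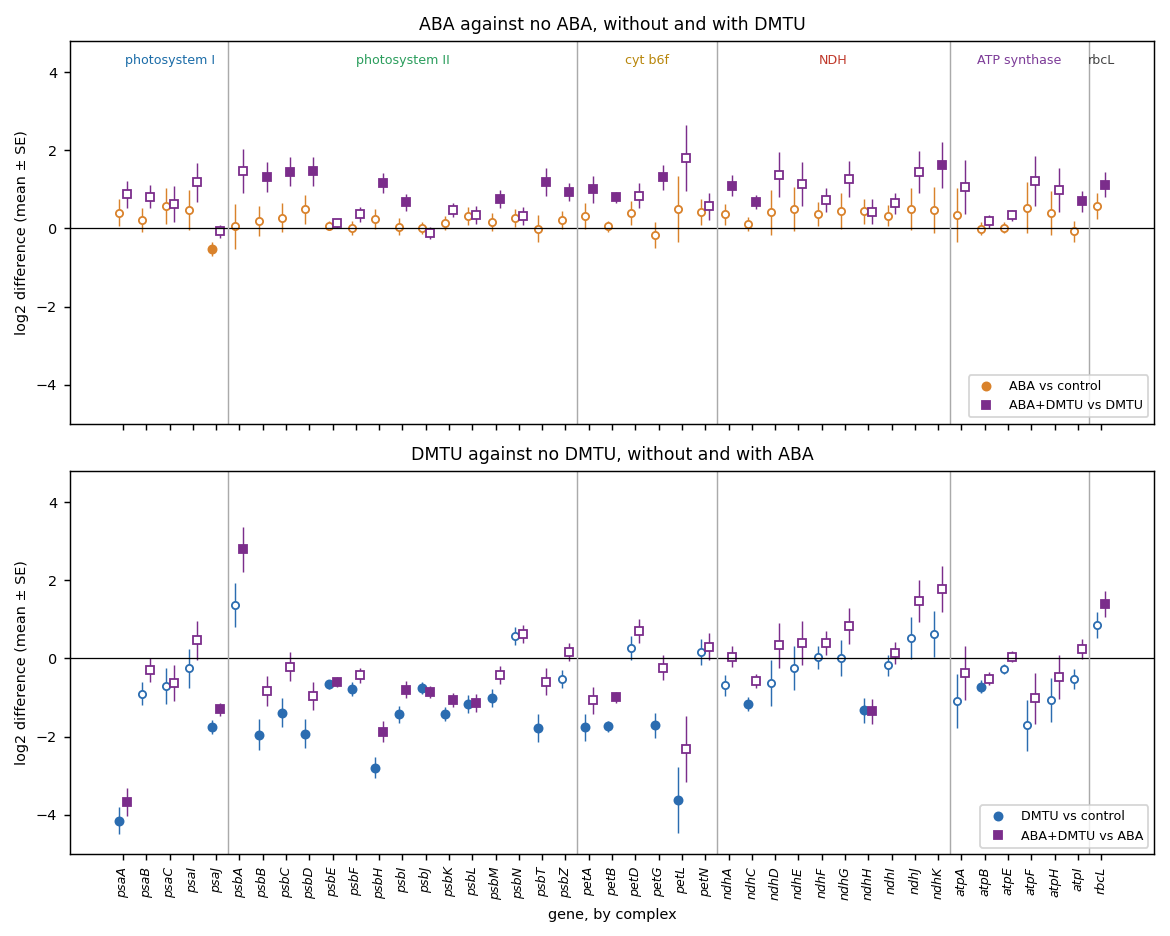
The upper panel plots log2 differences ± SE for ABA against control (circles) and ABA+DMTU against DMTU (squares), and the lower panel those for DMTU against control (circles) and ABA+DMTU against ABA (squares), by complex, with filled symbols where the gene was called. In the lower panel 21 circles below 0 are filled, and in the upper panel 16 squares above 0.

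In the NDH complex, ndhC and ndhH fell and the other 8 genes were not called in DMTU against control. The ndhH probe set, for a subunit of the arm that faces the stroma, read 7.19, 5.68 and 5.94 in control, 6.97, 6.54 and 6.64 in ABA, 4.79, 5.00 and 5.03 in DMTU and 5.55, 5.48 and 5.07 in ABA+DMTU arrays. All 6 arrays with DMTU lay below all 6 without it, and ndhH fell by 1.33 ± 0.32 in DMTU against control (limma adjusted p = 0.0148) and by 1.35 ± 0.32 in ABA+DMTU against ABA (limma adjusted p = 0.0161). Control replicate 1 stood above the other control arrays, and without it the ndhH difference in DMTU against control was -0.87. The ndhH calls did not hold without DMTU replicate 1 (limma adjusted p = 0.0527) or with only the groups compared (0.0616) in DMTU against control, nor without ABA replicate 1 (0.0531) or ABA+DMTU replicate 3 (0.0668) in ABA+DMTU against ABA. The ndhC fall was 1.17 ± 0.18. The ndhA probe set, for a membrane subunit, read 10.19, 9.64 and 9.49 in control, 10.2, 10.06 and 10.14 in ABA, 9.56, 8.98 and 8.72 in DMTU and 10.71, 9.86 and 9.97 in ABA+DMTU arrays. The lowest control array lay below the highest DMTU array, and the difference of -0.69 ± 0.27 was not called (limma adjusted p = 0.102). The ndhF probe set, for another membrane subunit, lay between 3.27 and 4.93 on all arrays, close to the lower quartile, with no call in any comparison. The median SD of the 10 ndh genes in control was 0.81, against 0.12 for photosystem II, so differences of the ndh genes were measured less precisely.

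In the ATP synthase, all 6 values lay below 0 in DMTU against control and 1 passed the test. The atpB probe set, for the catalytic beta subunit, read 13.42, 13.09 and 13.02 in control, 13.3, 13.12 and 13.06 in ABA, 12.58, 12.37 and 12.41 in DMTU and 12.99, 12.31 and 12.6 in ABA+DMTU arrays. The arrays with DMTU lay below those without it, and atpB fell by 0.72 ± 0.17 in DMTU against control (limma adjusted p = 0.0137, and 0.0532 without DMTU replicate 2). The atpA probe set, for the alpha subunit, read 11.82, 9.6 and 9.23 in control, 11.89, 9.7 and 10.1 in ABA, 9.22, 8.96 and 9.22 in DMTU and 10.94, 10.11 and 9.51 in ABA+DMTU arrays. Replicate 1 stood more than 1 unit above the other arrays in both the control and the ABA group. The atpA difference of -1.09 ± 0.69 did not pass the test (limma adjusted p = 0.317), nor did those of atpF (-1.71 ± 0.65), atpH (-1.07 ± 0.56), atpI (-0.52 ± 0.26) and atpE (-0.27 ± 0.14), for stator, ring, membrane and central stalk subunits. Control replicate 1 was the highest control array for all 6.

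Rubisco's large subunit gene differed from control in the other direction, without a call. The rbcL probe set read 7.94, 7.46 and 7.13 in control, 8.49, 7.62 and 8.14 in ABA, 8.35, 8.19 and 8.54 in DMTU and 10.15, 9.52 and 8.76 in ABA+DMTU arrays. The ABA+DMTU arrays lay above the other 9, and the DMTU arrays above the control arrays. The difference in DMTU against control was 0.85 ± 0.33 and was not called (limma adjusted p = 0.103), while rbcL rose by 1.39 ± 0.33 in ABA+DMTU against ABA (limma adjusted p = 0.0171, and up to 0.0624 without 1 array of these groups).

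Neighbours in 1 operon often differed in DMTU against control. The widest range within an operon was that of psaA and psaB, at 3.25. In the operon of psbB, psbT, psbH, petB and petD the first 4 fell by 1.95, 1.78, 2.79 and 1.73 and petD was at 0.27, and psbN, which lies between psbT and psbH on the other strand, was at 0.58. The ndhC fall of 1.17 stood beside values of 0.62 for ndhK and 0.52 for ndhJ. On control replicates 2 and 3, ndhK read 4.32 and 3.96, near the lower quartile, where a fall is hard to measure. Next to petA, which fell by 1.76, the genes cemA and ycf4 were at -2.68 and -2.53, and psaI, on the far side of them, was at -0.25. In the operon from ndhH to ndhD the values ran from -1.33 to 0.02. In several other operons every measured gene lay below 0. Among them, atpI, atpH, atpF and atpA lay between -1.71 and -0.52, and atpB and atpE at -0.72 and -0.27, with only atpB called. The psbK and psbI genes fell by 1.42 and 1.43, and psbE, psbF, psbL and psbJ fell by 0.66, 0.78, 1.17 and 0.75. The psbD and psbC genes fell by 1.92 and 1.39 with psbZ at -0.53, and petL, petG and psaJ fell by 3.62, 1.71 and 1.75. Differences between operon mates were not tested.

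**Figure D5:**
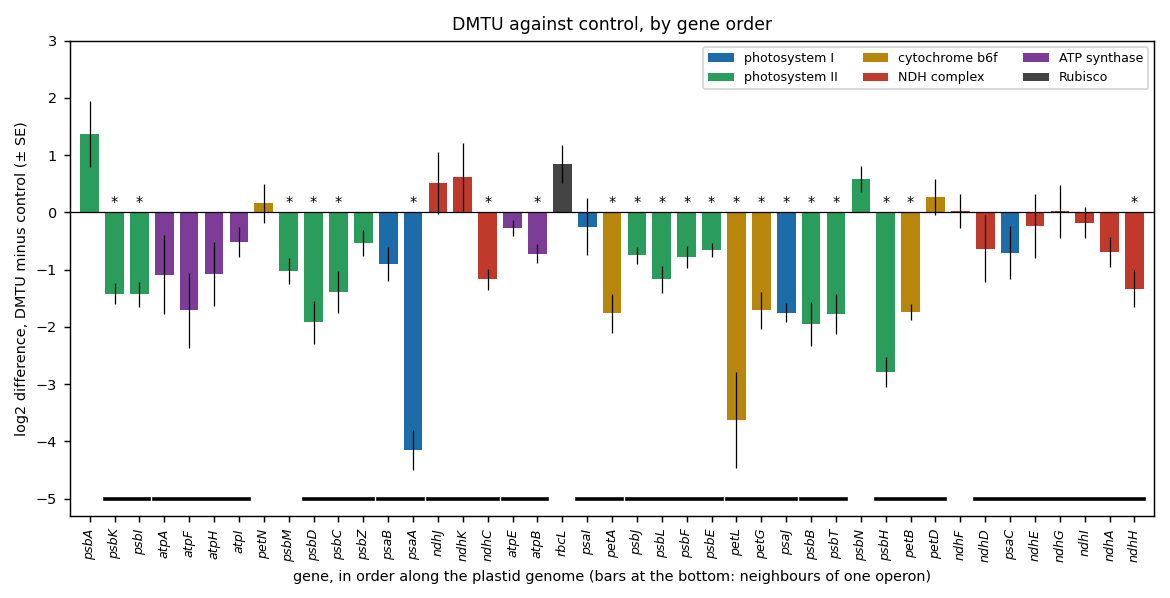
Bars are the log2 difference of each gene in DMTU against control ± SE, in order along the plastid genome and coloured by complex. Stars mark the 21 genes called lower, and black lines under the bars join neighbours of 1 operon, such as psaA at -4.15 beside psaB at -0.9.

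In ABA against control, which lies within the arrays without DMTU, no gene was called higher and 1 lower (psaJ), where 35.2% of all probe sets were called, 15.5% higher and 19.8% lower. The psaJ level fell by 0.53 ± 0.17 (limma adjusted p = 0.0312). That call did not hold with each array centred on its median (limma adjusted p = 0.104) or without control replicate 2 or 3 or any 1 of the 3 ABA arrays (0.0579 to 0.11). The median difference was 0.32, with 37 of the 43 values above 0, against 0.01 for all probe sets. It was 0.13 without control replicate 3 (31 above 0), 0.14 without ABA replicate 1, 0.2 without control replicate 2 and 0.22 without ABA replicate 3. By complex, the medians were 0.43 for the NDH complex, 0.4 for photosystem I, 0.35 for the cytochrome b6f complex, 0.18 for the ATP synthase and 0.16 for photosystem II, and rbcL was at 0.57 ± 0.33. Over the alternatives the ATP synthase median lay between -0.08 and 0.65. With weights for array quality, 23 genes were called higher and 1 lower, where 6327 of all 22746 probe sets were higher and 6564 lower. Without control replicate 1, ndhH was called higher beside psaJ, which was called lower.

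In ABA+DMTU against DMTU, 16 genes were higher and none lower, where 39.4% of all probe sets were called, 18.8% higher and 20.6% lower. The median difference was 0.87, against 0.03 for all probe sets, and 41 of the 43 values lay above 0. The ABA+DMTU arrays lay wholly above the DMTU arrays for 21 genes (48.8%, against 26.3% of all probe sets). Photosystem II had 8 of its 15 genes called, the cytochrome b6f complex 3 of 6, the NDH complex 3 of 10, the ATP synthase 1 of 6, Rubisco 1 of 1 and photosystem I 0 of 5. This count depended on single arrays of the groups compared. It was 33 without ABA+DMTU replicate 3, 8 without replicate 1 or replicate 2 of that group, 10 without DMTU replicate 2, 9 without DMTU replicate 3 and 27 without control replicate 1, which left the differences as they were and changed the estimate of the spread.

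The 8 genes of photosystem II that rose in ABA+DMTU against DMTU were psbB, psbC, psbD, psbH, psbI, psbM, psbT and psbZ, and those of the cytochrome b6f complex petA, petB and petG. Their values included those of petG (1.31 ± 0.32), petB (0.79 ± 0.14), petA (1.00 ± 0.34), psbD (1.46 ± 0.37), psbC (1.45 ± 0.37), psbB (1.31 ± 0.39), psbT (1.19 ± 0.35) and psbH (1.16 ± 0.26). The same DMTU arrays enter this comparison and that of DMTU with control, so the falls above and these rises are not independent. In the NDH complex ndhA, ndhC and ndhK rose, by 1.09 ± 0.27, 0.68 ± 0.18 and 1.63 ± 0.59. The ndhK probe set, for another subunit of the stromal arm, read 5.76, 4.32 and 3.96 in control, 5.99, 4.54 and 4.9 in ABA, 5.38, 5.15 and 5.36 in DMTU and 7.48, 7.7 and 5.59 in ABA+DMTU arrays. ABA+DMTU replicates 1 and 2 lay above every other array, while replicate 3 lay below the highest control and ABA arrays.

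The atpI probe set, for a membrane subunit of the ATP synthase, read 5.49, 4.94 and 4.83 in control, 5.06, 4.84 and 5.11 in ABA, 4.69, 4.27 and 4.73 in DMTU and 5.8, 5.24 and 4.74 in ABA+DMTU arrays. Its rise of 0.69 ± 0.26 was the only one of the ATP synthase and lay at the threshold (limma adjusted p = 0.0499), with the lowest ABA+DMTU array 0.01 above the highest DMTU array. The rbcL rise was 1.12 ± 0.33 (limma adjusted p = 0.0191). The genes of the psbE, psbF, psbL and psbJ operon lay between -0.11 and 0.36, and psaJ was at -0.08 ± 0.17, none of them called. Of the 16 calls, those of ndhA, ndhC, petB, petG, psbC, psbD, psbH and psbZ held under every alternative, and those of atpI, ndhK, petA, psbB, psbI, psbM, psbT and rbcL were each lost when some single array was left out (limma adjusted p up to 0.192).

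In ABA+DMTU against ABA, 10 genes were lower and 2 higher, where 14.2% of all probe sets were called, 6.86% lower and 7.36% higher. The ABA+DMTU arrays lay wholly below the ABA arrays for 16 genes (37.2%, against 15.3% of all probe sets) and wholly above them for 2 (against 19.7%). The genes called higher were psbA and rbcL. The genes called lower were psaA and psaJ of photosystem I, psbE, psbH, psbI, psbJ, psbK and psbL of photosystem II, petB and ndhH. Their falls lay between 0.6 ± 0.12 for psbE and 3.67 ± 0.35 for psaA. The median difference over the 43 genes was -0.42, against 0.05 for all probe sets, and DMTU and array handling cannot be told apart here either. Without ABA+DMTU replicate 3 that median was -0.11, and without ABA replicate 1 it was -0.26. The psbI call was lost without some single arrays (limma adjusted p up to 0.103). This comparison shares no array with DMTU against control. All 10 genes lower here were also lower there, which is 100% of these 10 and 47.6% of the 21. Across the 43 genes the differences of both comparisons correlated at r = 0.93, as a description over genes that share operons and arrays that share the control transcripts above. The value in ABA+DMTU against ABA was the higher one for 41 of the 43 genes.

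The interaction, which is the ABA difference with DMTU minus that without it, tests this last point gene by gene. None of the 43 genes passed limma's adjusted threshold, where 2.80% of all probe sets did (1.16% above and 1.65% below 0), and 6 had an unadjusted p under 0.05. These 6 were petG (1.48 ± 0.46), psbT (1.2 ± 0.49), psbC (1.18 ± 0.53), psbH (0.92 ± 0.37), petB (0.74 ± 0.2) and ndhC (0.59 ± 0.26), all positive. The lowest limma adjusted p was 0.0818, for petB. The median interaction was 0.63, against 0.01 for all probe sets, with 41 of the 43 values above 0. That median was 0.3 without control replicate 1 (36 above 0), 0.34 without ABA+DMTU replicate 1 and 0.2 with weights for array quality (32 above 0). With all 12 arrays weighted equally, a smaller or larger ABA difference with DMTU was not shown for any single gene. Weights for array quality brought petB past the threshold, and leaving out ABA+DMTU replicate 3 brought petG and psbH past it.

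The other 26 plastid-encoded protein genes gave 9 lower and 1 higher in DMTU against control, with a median of -0.36, beside 8.26% lower and 9.39% higher over all probe sets. Lower in ABA+DMTU against ABA were 7 (26.9%, beside 6.86%). Their counts in the other comparisons were below the share over all probe sets, with 3 higher in ABA+DMTU against DMTU (11.5%, beside 18.8%), 1 lower in ABA against control (3.85%, beside 19.8%) and none in the interaction. The cemA and ycf4 differences in DMTU against control were -2.68 ± 0.36 and -2.53 ± 0.4, both called lower. Both encode proteins of the plastid membrane. The 1 gene called higher was ycf3, at 1.38 ± 0.41 (limma adjusted p = 0.0408).

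Of the nuclear genes for subunits and regulators of the same complexes, only 15 had a probe set naming 1 gene. These were 2 of 17 listed for photosystem I, 5 of 26 for photosystem II and 4 of 22 for the NDH complex. The rest were 2 of 4 for the ATP synthase, 1 of 5 for Rubisco and 1 of 10 electron carriers. In DMTU against control, 7 of the 15 were lower and 2 higher (60% called, beside 17.6% of all probe sets). The lower ones were PSAN (-2.61 ± 0.3) and PSAE-1 (-0.76 ± 0.12) of photosystem I, LHCB4.2 (-1.04 ± 0.25), LHCB4.1 (-0.68 ± 0.18) and PSBW (-0.5 ± 0.15) of photosystem II and its antenna, and NdhS (-0.82 ± 0.17) and NdhN (-0.61 ± 0.16) of the NDH complex. The higher ones were PIFI (1.86 ± 0.32) of the NDH complex and ATPC2 (0.59 ± 0.1) of the ATP synthase. In ABA+DMTU against DMTU 12 were higher and 1 lower (86.7% called, beside 39.4%). In ABA against control 6 were higher and none lower (40% called, beside 35.2% of all probe sets, 15.5% higher and 19.8% lower). PGRL1B, of cyclic electron flow, rose by 1.12 ± 0.12 with ABA alone and by 1.42 ± 0.12 with ABA beside DMTU. In ABA+DMTU against ABA, 1 was higher (PIFI, a regulator of the NDH complex, 2.08 ± 0.32) and none lower (6.67%, beside 14.2%). In the interaction none of the 15 was called.

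Only 6 of the 28 nuclear genes listed for plastid RNA maturation were measured, all of them for RNA editing. In the same order of comparisons, their counts were 1 higher and none lower, then 1 higher and 1 lower. Next came none higher and 2 lower, and last 1 higher and none lower. The shares called were 16.7%, 33.3%, 33.3% and 16.7%, near the 17.6%, 39.4%, 35.2% and 14.2% of all probe sets. OTP84, an editing factor, rose by 0.68 ± 0.15 in DMTU against control. Of 16 genes listed under photosystem assembly, 6 were measured. None of these 6 was called in DMTU against control, and 2 were higher and 1 lower in ABA+DMTU against DMTU. In ABA against control 1 was higher and 3 lower, and in ABA+DMTU against ABA 2 were higher. Their shares called were 0%, 50%, 66.7% and 33.3%, beside the same shares of all probe sets. HCF101, an assembly factor of photosystem I, rose by 2.39 ± 0.14 with ABA alone and by 2.1 ± 0.14 with ABA beside DMTU. No gene of the list for plastid transcription had a probe set naming 1 gene.

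Markers of dividing cells differed between the groups, but only 3 of the 28 listed were measured. The 3 measured, the Aurora kinases AUR1 and AUR2 and the replication factor PRL, were all lower in ABA against control, at -3.54 to -2.02, and in ABA+DMTU against DMTU, at -4.25 to -3.2. AUR1 and PRL were higher in DMTU against control, by 1.1 ± 0.32 and 0.65 ± 0.18, and AUR2, at 0.95 ± 0.31, was not called. DMTU and array handling cannot be told apart in that comparison. None of the 3 was called in ABA+DMTU against ABA. The log2 of their summed level was 8.7 to 9.55 in control, 5.88 to 6.64 in ABA, 10.06 to 10.4 in DMTU and 6.15 to 6.48 in ABA+DMTU arrays. Their part in the values of the plastid genes was not tested. The 3 organ markers were not called in any comparison.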

How the data were processed

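RNA of 12 samples of T87 cells, 3 in each of 4 groups taken from the sample titles, was measured on Affymetrix arrays. Values were used as the authors deposited them, on a log2 scale, 1 per probe set and array. The submitters' processing notes name RMA, which summarises probes into probe sets, and limma, but give neither a version nor a step. Whether all 12 arrays were normalized together is not given in the sources used here. Array medians lay between 5.78 and 6.05, and no normalization was added. With 3 arrays per group, precision is limited by their number.

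There were 22810 probe sets, and all but the 64 controls were tested. Names came from the platform annotation, which gave 1 gene for 13513 probe sets and several for 503, and 8730 are unnamed here. All 43 members matched the gene table of RefSeq. No genome build was named, so only gene order is used, and no sequence is shown.

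A mean per group was fitted over all 12 arrays with limma 3.58.1 in R 4.3.3 (lmFit and eBayes, 8 residual degrees of freedom, two-sided). There were 5 contrasts, and p-values were adjusted by Benjamini-Hochberg over all 22746 probe sets, with a threshold of 0.05. The procedure was tested on simulated data. Tables and plots were made with Python 3.11.15, pandas 2.3.3 and matplotlib 3.10.9.

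The alternatives were median centring, quantile normalization, a filter on the dimmest 25%, array quality weights, the replicate number as a block, an intensity trend with robust eBayes, a fit of only the groups compared, each array left out in turn, and both number 1 arrays of control and ABA left out. Genes given with their value on every array are psaA, psaB, psbA, psbD, petA, petB, ndhA, ndhF, atpA, atpB and rbcL, and in each complex and contrast the gene with the largest called rise and the largest called fall. For ndhF only its range is given. Members, gene lists and operons were chosen with earlier results of these data known.

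The replicate numbers were checked for pairing. Deviations of same-numbered control and ABA arrays from their group means correlated at 0.52, 0.42 and 0.39 across probe sets, which pairs these groups by the rule that every value exceed 0.1. No label says what a number marks, and number 2 and number 3 correlated as highly with each other, at 0.44 and 0.41. In the other comparisons not every value exceeded 0.1.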

Additional observations from a re-analysis of the deposited data

Results flagged for a closer look

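Control transcripts of Bacillus genes, which the comparisons do not use, gave a signal on the arrays with DMTU that was absent or lower on those without it. The mean of the 6 arrays with DMTU minus the mean of the 6 without it was 4.87 for dap, 2.05 for thr, 1.3 for phe and 1.0 for lys on the log2 scale, with no overlap between the kinds of array for any of these 4. The trp transcript lay at 3.13 to 3.3 without and 3.18 to 3.41 with DMTU, which overlapped. The probe sets of bioB, a bacterial transcript added at hybridization, were also higher with DMTU, for example 8.31 ± 0.07 in the DMTU group and 7.39 ± 0.25 in control. The part of this difference in the values of the plastid genes was not tested.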

How the results depend on the processing

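All alternatives were chosen with earlier results of these data known. The 21 genes called in DMTU against control, all lower, became 18 to 23 when 1 array was left out. Array quality weights gave 24 lower and 6 higher, and a fit of only the groups compared 21 lower and 3 higher. Of the 21 genes, 16 kept their call under each of the 20 alternatives, among them psaA, psaJ, psbH, petA, petB and petG. In ABA+DMTU against DMTU the 16 calls became 29 with each array centred on its median, 27 with the replicate block, 29 without both number 1 arrays of control and ABA, and 8 (without ABA+DMTU replicate 1 or 2) to 33 (without ABA+DMTU replicate 3) when 1 array was left out, with 8 genes keeping their call under all 20. In ABA+DMTU against ABA the 12 calls became 26 with array quality weights, 4 higher and 22 lower, and 10 to 18 when 1 array was left out, with 9 keeping their call. In ABA against control the 1 call became 0 with centring, 24 with array quality weights, and 0 (without control replicate 2 or 3 or any ABA array) to 2 (without control replicate 1) when 1 array was left out. In the interaction 0 calls became 1 (petB) with array quality weights, 1 (petB) without both number 1 arrays, and 0 to 2 (without ABA+DMTU replicate 3) when 1 array was left out. The causes of these shifts were not tested. Of 1000 checks of the 50 single calls, 927 held, 73 fell below the threshold and 0 changed direction. The replicate block left 1 call in ABA against control, 24 in DMTU against control, 18 in ABA+DMTU against ABA and 0 in the interaction.

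Over all probe sets, array quality weights raised the calls from 8014 to 12891 in ABA against control, from 4013 to 8008 in DMTU against control, from 3234 to 7542 in ABA+DMTU against ABA and from 638 to 3097 in the interaction. Without DMTU replicate 2 the calls in DMTU against control were 2559. The interaction had 291 to 795 when 1 array was left out and 1243 without both number 1 arrays. Centring moved the median of all probe sets from 0.01 to 0.16 in ABA against control and from 0.03 to 0.2 in ABA+DMTU against DMTU, and the medians of the 43 genes from 0.32 to 0.46 and from 0.87 to 1.04. Probe sets near the lower quartile, such as ndhF and petD, have little room to show a fall.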
